A study of Mus musculus with 6 samples.

Results

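The 4 Notch receptors and the 5 canonical Notch ligands of the mouse were examined in the cochlear sensory epithelia (CSE), the strip of hair cells and supporting cells that lines the cochlear duct. The members are Notch1, Notch2, Notch3 and Notch4, the Jagged ligands Jag1 and Jag2, and the Delta-like ligands Dll1, Dll3 and Dll4. Every probe set that the array annotation gives to a single one of these 9 genes was taken, 18 probe sets in all, from an array that names 18194 genes by single-gene probe sets. All 9 genes had at least 1 probe set above the signal filter described next, and 15 of the 18 probe sets passed it.

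CSE were dissected from Swiss Webster mice at postnatal day 3 (P3) and from adult mice aged 8 weeks, without any treatment at either stage. Each stage was measured on 3 Affymetrix arrays, and each array holds the pooled CSE of 20 mice, so no value belongs to a single animal. Per the study's methods the P3 pieces also held the greater and lesser epithelial ridges, which recede later, whereas the adult pieces held the inner sulcus and the interdental cells. The difference in tissue make-up and the difference in age therefore cannot be told apart.

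Notch signaling runs between touching cells. A ligand on the surface of a cell binds a receptor on its neighbor, the receptor is cut by an ADAM metalloprotease and then by gamma-secretase, and its inner part enters the nucleus, where it joins the DNA-binding protein Rbpj and turns on genes of the Hes and Hey families. In the developing cochlea Jag1 marks the prosensory region and later the supporting cells, while Dll1 and Jag2 are made by young hair cells and keep the adjoining cells from taking the hair cell fate through Notch1. Notch4 and Dll4 are best known from blood vessel walls, and Notch3 from pericytes and vascular smooth muscle.

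Signals are the deposited MAS5.0 intensities, a linear scale on which the authors set the trimmed mean of every array to 100. The background level of an array was the signal under which 90% of the 83 chemosensory receptor probe sets (olfactory, vomeronasal and bitter taste) lay. It ran from 6.29 to 16.3 on 5 arrays and was 34.5 on P3 replicate 1. P3 replicate 1 also stood apart in RNA quality, with a 3' to 5' signal ratio of 82.0 for Gapdh against 0.707 to 2.07 elsewhere. A probe set was kept when it exceeded background on at least 3 of the 6 arrays. Kept probe sets were compared with limma on log2 signals, and a probe set was called at an adjusted p under 0.05 together with a 2-fold or larger change. The sign of a log2 fold change is that of adult minus P3. With 3 arrays a stage, the smallest p of an exact permutation test is 0.1, so the overlap of the arrays is described instead. Of the 29036 probe sets tested, 3.87% were called with P3 higher and 3.39% with the adult higher. The arrays of the stages did not overlap, with P3 higher, for 15.6% of them and, with the adult higher, for 15.5%.

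Among the receptors and ligands, Jag1 was up-regulated in the P3 CSE and no other member was called. Of the 15 kept probe sets, 1 was called (6.67%), with P3 higher. Counted as genes by the brightest kept probe set, 1 of 9 was called higher at P3 (11.1%), where 5.49% of the 13743 genes measured were called with P3 higher and 4.53% with the adult higher. With a single member called, these percentages do not set the group apart from the other genes. For 13 of the 15 kept probe sets the log2 fold change was below 0, and the median over the 9 genes was -0.60, against -0.04 over all genes. On 5 kept probe sets the 3 P3 arrays lay above the 3 adult arrays, and on 1 the adult arrays lay above. These are 33.3% and 6.67% of the kept member probe sets, beside the 15.6% and 15.5% of all probe sets.

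**Figure D1:**
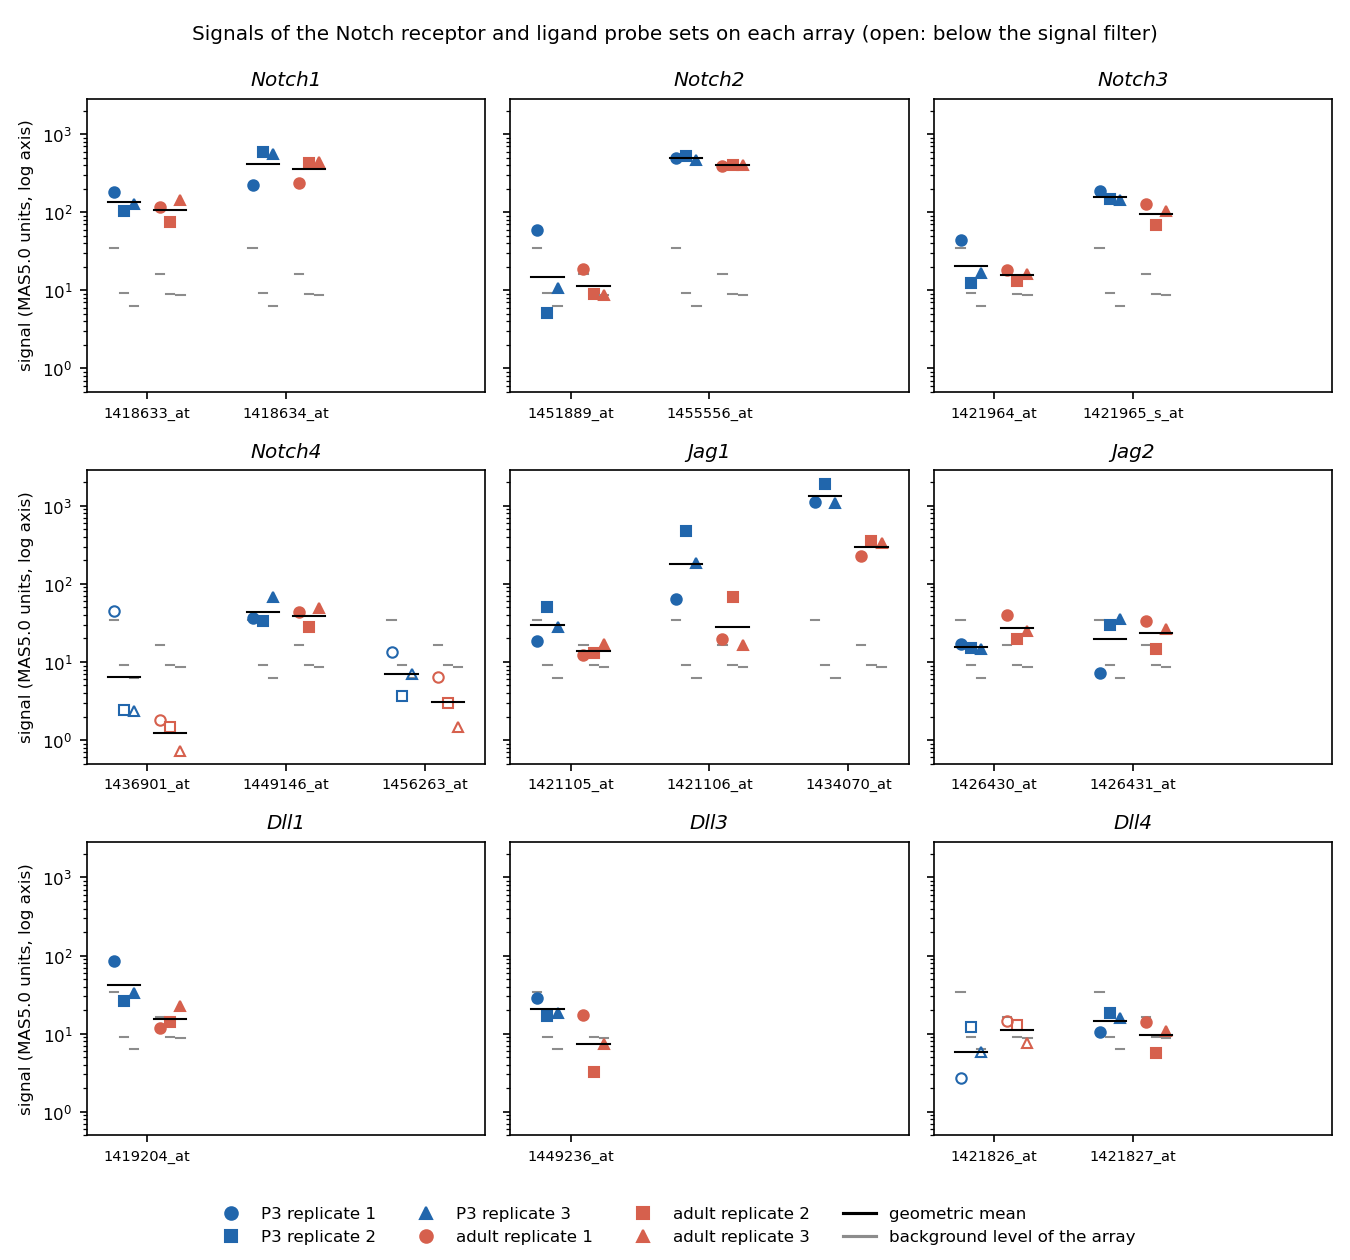
MAS5.0 signal (log axis) of each of the 18 probe sets on each of the 6 arrays, in 1 panel per gene, with blue points for P3 and red points for adult. Black lines are geometric means of 3 arrays, grey ticks are the background level of each array, and open symbols mark the 3 probe sets below the signal filter. The P3 and adult arrays separate most clearly at Jag1 1434070_at, at 1096 or more against 352 or less.

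Jag1 encodes the ligand Jagged1, a membrane protein of the prosensory region and of supporting cells. Its brightest probe set, 1434070_at, had P3 signals of 1109, 1931 and 1096 in replicate order, against adult signals of 228, 352 and 335 in the same order. All P3 arrays were thus above all adult arrays in signal, and P3 replicate 2 was the highest of the 6. Relative to background the P3 arrays stood at 32.1, 211 and 174 times and the adult arrays at 14.0, 38.9 and 38.4 times. On that scale P3 replicate 1, the array of highest background, lay within the adult range. The mean signal was 1378 ± 478 at P3 and 305 ± 67.0 in the adult (SD, n = 3). The log2 fold change was -2.15 (SE 0.30, 95% interval -2.83 to -1.47, limma adjusted p = 0.00541), which is a 4.43-fold higher level at P3. In these pooled samples fewer Jag1-bearing cells and less Jag1 RNA per cell cannot be told apart.

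The other probe sets of Jag1 pointed the same way with wider errors. At 1421106_at the signals were 64.3, 482 and 183 at P3 and 19.6, 67.7 and 16.5 in the adult. P3 replicate 1 lay just below adult replicate 2, and the arrays of the stages overlapped there. Its log2 fold change of -2.67 (SE 0.77) had a limma adjusted p of 0.0737 and was not called. Without P3 replicate 1 the log2 fold change of 1421106_at was -3.41 and the adjusted p 0.0219, which is a call. At 1421105_at the P3 signals were 18.3, 50.8 and 28.1 and the adult signals 12.1, 13.2 and 17.2. These stages did not overlap, although 1 array of each stage was below its background level, and the log2 fold change was -1.09 (SE 0.55, limma adjusted p = 0.271).

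The 3 probe sets of Jag1 were also compared with each other. The change at 1421106_at differed from that at 1434070_at by -0.53 on the log2 scale (95% interval -2.30 to 1.24), and the change at 1421105_at by 1.06 (95% interval -0.16 to 2.28). Neither difference passed limma, with adjusted p of 0.890 and 0.699 over all pairs, and the intervals still allow differences of more than 1 log2 unit. The mean of the log2 signals of all 3 probe sets changed by -1.97 on the log2 scale, with an SE of 0.44 (limma adjusted p = 0.0269).

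**Figure D2:**
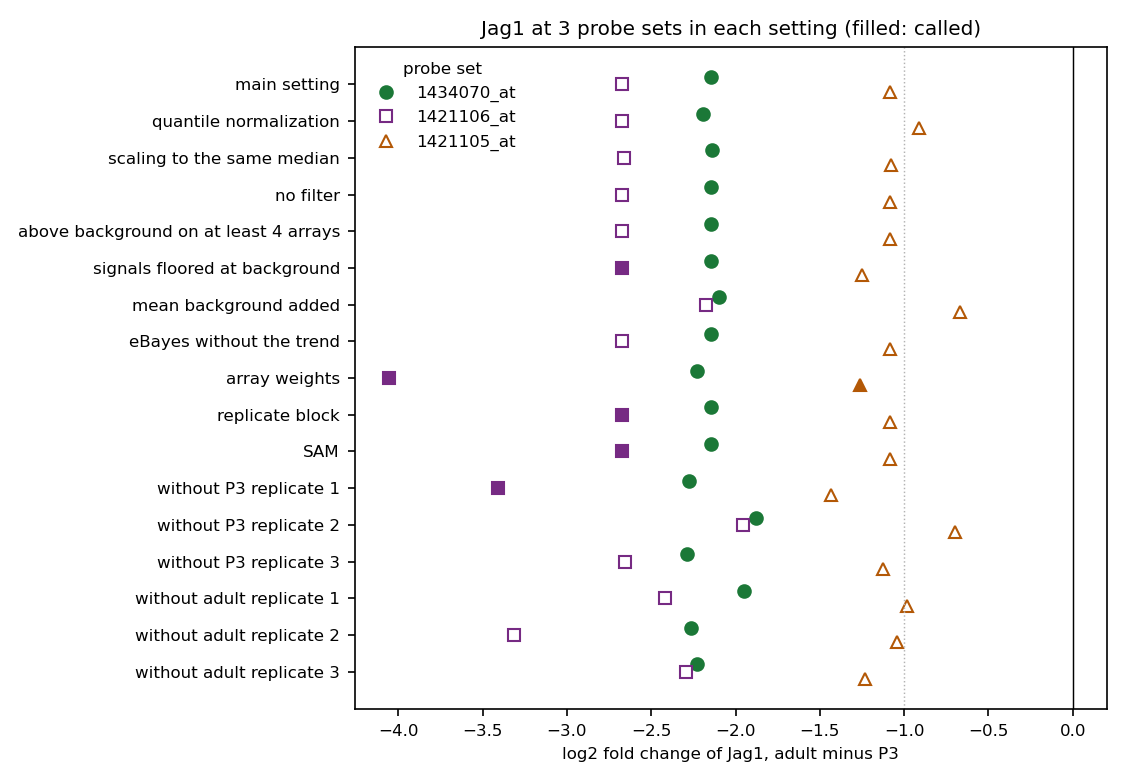
Change of Jag1 from P3 to adult (horizontal axis, log2 fold change) at its 3 probe sets in the main setting and 16 other settings, with filled symbols where the probe set was called. The brightest probe set, 1434070_at, was called in every setting shown, between -1.88 and -2.29, while 1421106_at was called in 5 of the 16 others and 1421105_at in 1.

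Markers of cell types were counted beside Jag1. Over all genes, 5.49% were called higher at P3 and 4.53% in the adult. In lists this short, a single call does not set a list apart from these shares. Of 12 supporting cell genes, 3 were called higher at P3 and 1 in the adult, and Sox2, a transcription factor of supporting and progenitor cells, had a log2 fold change of -2.48 (limma adjusted p = 0.00401). The summed signal of the 12 genes was 38856, 19597 and 15054 at P3 in replicate order and 14809 to 20666 in the adult. Their median log2 fold change was -0.10. Epyc, a matrix proteoglycan that was not called, made up much of that sum, at 21617, 6616 and 4670 on the P3 arrays. Gjb6, a gap junction protein, was the gene called higher in the adult. Of 10 genes of fibroblasts and mesenchyme, 1 was called higher at P3. The summed signal of these 10 was 39459, 19982 and 18419 at P3 in replicate order and 9619 to 10740 in the adult. The highest of these P3 values were thus on P3 replicate 1, the array with the Gapdh ratio of 82.0, and the part of RNA quality in them was not tested. Of 9 measured genes of granulocytes and erythroid cells, 8 were called higher in the adult, with sums of 153 to 408 at P3 and 3810 to 16960 in the adult. Of 10 macrophage genes, Mrc1 was called higher at P3 and Lyz2 and Cd14 in the adult, with sums of 1463 to 2054 at P3 and 2664 to 4157 in the adult. Of 6 measured genes of glia and myelin, S100b was called higher in the adult, with sums of 7787 to 12500 at P3 and 11799 to 28100 in the adult. The part of any of these cells in the Jag1 result was not tested. Of 12 hair cell genes listed, 9 were measured and none was called, with sums of 520 to 686 at P3 and 418 to 635 in the adult. Slc26a5, the motor protein of outer hair cells, was below background on all 6 arrays at its single probe set, which lay at 0.375 to 7.69.

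Over the 6 arrays, the log2 signals of 373 probe sets of other genes had a Pearson r above 0.95 with those of Jag1 at 1434070_at. The closest were those of Auts2, a nuclear regulator of neural development (r = 0.998, log2 fold change -1.34), Khsrp, an RNA-binding protein (r = 0.997, log2 fold change -0.82), and Tox, an HMG-box protein (r = 0.996, log2 fold change -2.57). These are descriptions over 6 arrays that fall into 2 stages, and a gene with a steady difference between the stages can reach a high r.

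Jag2 encodes the other Jagged ligand, which young hair cells make. Its brightest probe set, 1426431_at, had signals of 7.30, 30.0 and 35.3 at P3 and of 33.7, 14.8 and 26.3 in the adult. The stages overlapped, and P3 replicate 1 was the lowest array. The log2 fold change was 0.25 (95% interval -1.35 to 1.85, limma adjusted p = 0.864), and without P3 replicate 1 it was -0.47. At 1426430_at the signals were 17.2, 15.0 and 14.8 at P3 and 39.5, 19.9 and 24.9 in the adult. Here the adult arrays lay above the P3 arrays, the only kept probe set of the group with that order, yet the log2 fold change of 0.79 (SE 0.49) had a limma adjusted p of 0.380. Both probe sets were above background on 2 P3 arrays and 3 adult arrays. The interval of the change at 1426430_at ran from -0.34 to 1.91, and no direction was called for Jag2.

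Dll1 encodes the Delta ligand of nascent hair cells and was measured by 1 probe set, 1419204_at. Its signals were 85.2, 25.9 and 33.3 at P3 and 11.9, 14.0 and 22.8 in the adult. All P3 arrays lay above all adult arrays, and adult replicate 1 was below its background level. The log2 fold change was -1.43 (SE 0.57, 95% interval -2.73 to -0.12), with an unadjusted p of 0.0358 and a limma adjusted p of 0.176, which is no call. The highest signal was on P3 replicate 1, the array of highest background, and relative to background the P3 arrays stood at 2.47, 2.83 and 5.29 times and the adult arrays at 0.730, 1.55 and 2.61 times. Without P3 replicate 1 the log2 fold change of Dll1 was -0.91.

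Dll3, a divergent ligand that acts inside the cell it is made in and is known from somite formation, had 1 probe set, 1449236_at. Its signals were 28.3, 17.0 and 18.1 at P3 and 17.4, 3.21 and 7.43 in the adult. Adult replicate 1 overlapped the P3 arrays, and the probe set was above background on 2 P3 arrays and 1 adult array. The log2 fold change was -1.46 (SE 0.76, limma adjusted p = 0.288), and it ranged from -2.07, with adult replicate 1 left out, to -0.86, with adult replicate 2 left out. With array weights Dll3 was called higher at P3 (log2 fold change -1.26, limma adjusted p = 0.0335), the single alternative that called it.

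Dll4, the ligand of vascular tip cells, had 2 probe sets, of which 1421827_at was kept. Its signals were 10.4, 18.2 and 15.8 at P3 and 14.2, 5.58 and 10.9 in the adult, and 2 P3 arrays and 1 adult array exceeded background. The stages overlapped, and the log2 fold change was -0.60 (95% interval -2.12 to 0.93, limma adjusted p = 0.637). The second probe set, 1421826_at, was above background on 1 array of each stage and was not tested. Its signals of 2.69, 12.3 and 5.77 at P3 and 14.3, 13.0 and 7.67 in the adult ran the other way from the first. A change of Dll4 was not detectable at these signals.

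Notch1, the receptor through which hair cells hold back their neighbors, was well above background at both of its probe sets on every array. The brightest, 1418634_at, had signals of 223, 595 and 564 at P3 and of 238, 429 and 440 in the adult. The stages overlapped through P3 replicate 1, which lay below all adult arrays, while the other P3 arrays lay above them. The log2 fold change was -0.25 (95% interval -1.20 to 0.71, limma adjusted p = 0.765), and without P3 replicate 1 it was -0.71. At 1418633_at the signals were 182, 105 and 129 at P3 and 117, 74.4 and 143 in the adult, and the change was -0.33 on the log2 scale (95% interval -1.09 to 0.43). Both intervals reach past a log2 fold change of -1 on the P3 side and stay under 1 on the adult side, so a level up to 2-fold higher at P3 lies inside both.

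Notch2, a broadly made receptor, had the narrowest interval of the 15 kept probe sets at its brightest. Its brightest probe set, 1455556_at, had signals of 503, 520 and 466 at P3 and of 392, 408 and 405 in the adult. The stages did not overlap and each was tight, at 497 ± 27.5 and 401 ± 8.70 (SD, n = 3). The log2 fold change was nevertheless small, -0.31 (95% interval -0.74 to 0.13, limma adjusted p = 0.381). The interval excludes a fold of 2 in either direction. The second probe set, 1451889_at, had signals of 58.7, 5.10 and 10.8 at P3 and of 19.0, 9.07 and 8.84 in the adult, so that P3 replicate 1 alone was high. Its log2 fold change was -0.36 (SE 0.94) with all arrays and 0.63 without P3 replicate 1.

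Notch3, the receptor of pericytes and vascular smooth muscle, had 2 kept probe sets. At 1421965_s_at the signals were 189, 147 and 145 at P3 and 126, 68.1 and 104 in the adult. The stages did not overlap, and the log2 fold change was -0.72 (SE 0.30, 95% interval -1.40 to -0.05), with an unadjusted p of 0.0388 and a limma adjusted p of 0.184, so the change was not called. The suffix of this probe set marks probes that can match more than 1 transcript. The second probe set, 1421964_at, had signals of 43.8, 12.3 and 16.6 at P3 and of 18.3, 13.4 and 16.2 in the adult, which overlap. Of 11 listed pericyte and smooth muscle genes, 10 were measured and none was called. Their summed signal was 1870 to 2569 at P3 and 2667 to 3563 in the adult. The part of these cells in the Notch3 values was not tested.

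Notch4, the endothelial receptor, had 3 probe sets, of which 1449146_at was kept. Its signals were 36.7, 33.9 and 68.2 at P3 and 43.1, 28.4 and 49.5 in the adult, with overlapping stages and a log2 fold change of -0.16 (95% interval -1.13 to 0.81, limma adjusted p = 0.857). The other probe sets were above background on P3 replicate 1 alone or on P3 replicate 3 alone. At 1436901_at the signals were 45.3, 2.40 and 2.39 at P3 and 1.79, 1.47 and 0.734 in the adult. At 1456263_at they were 13.5, 3.68 and 7.01 at P3 and 6.40, 2.94 and 1.48 in the adult. Of 12 endothelial marker genes all were measured and none was called, with sums of 1283 to 1924 at P3 and 1105 to 1704 in the adult.

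**Figure D3:**
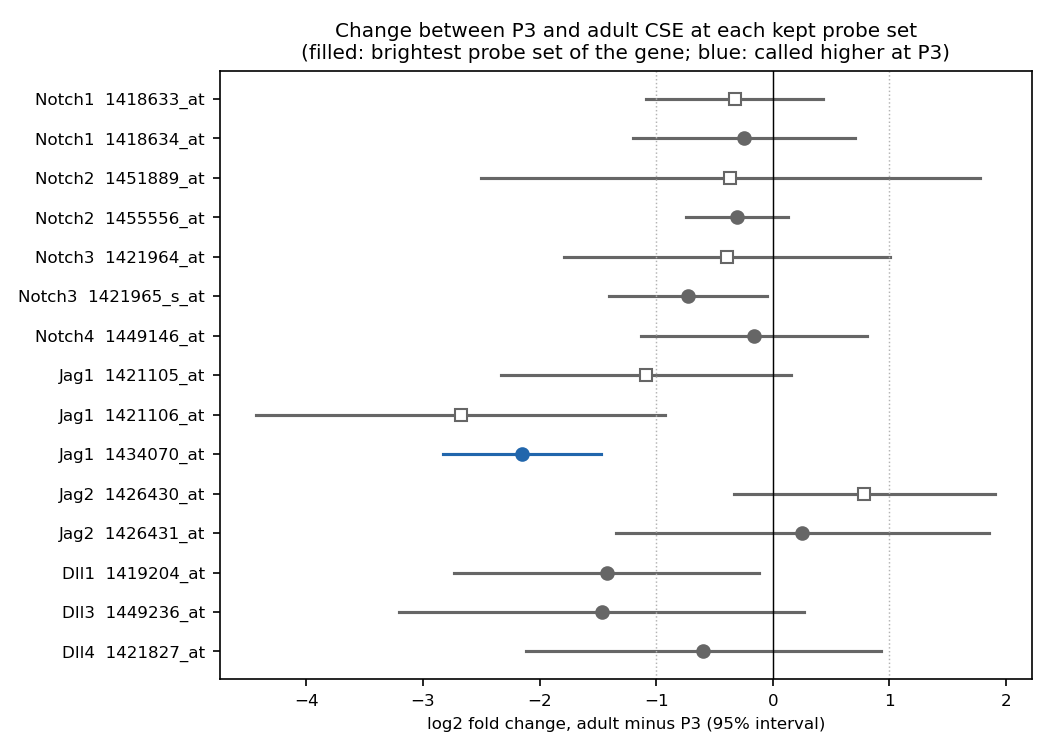
Change from P3 to adult (horizontal axis, log2 fold change) with its 95% interval from limma at each of the 15 kept probe sets, filled where the probe set is the brightest of its gene. Jag1 1434070_at is drawn in blue as the only one called, and dotted lines mark a fold of 2. The interval of Notch2 1455556_at, -0.74 to 0.13, is the narrowest and lies inside those lines.

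By role, the 4 receptors had a median log2 fold change of -0.28 and ranged from -0.72 to -0.16, while the 5 ligands had a median of -1.43 and ranged from -2.15 to 0.25. The ligand median is the value of Dll1, which was not called. Without P3 replicate 1 the receptors, from Notch1 to Notch4, stood at -0.71, -0.30, -0.60 and -0.29. The ligands then stood at -2.28 (Jag1), -0.47 (Jag2), -0.91 (Dll1), -1.24 (Dll3) and -0.83 (Dll4). With the mean background added to the signals, the ligands stood at -2.10 (Jag1), 0.09 (Jag2), -0.94 (Dll1), -0.62 (Dll3) and -0.26 (Dll4). The receptors, from Notch1 to Notch4, stood at -0.24, -0.30, -0.64 and -0.12 in that setting. The size of the ligand changes thus depended on the setting. The receptor and ligand medians were not tested against each other. Probe sets of a gene were then compared pair by pair, each further kept probe set against the brightest of its gene. Over all genes with several kept probe sets, 11020 pairs were fitted with limma and 0% had a different change at an adjusted p under 0.05, although 853 pairs did so at an unadjusted p under 0.05. The Notch receptors and ligands gave 6 such pairs, in Notch1, Notch2, Notch3, Jag1 and Jag2. None of these 6 differed, also at an unadjusted p under 0.05, although 1 reached that unadjusted level when signals were floored, when the mean background was added, without the intensity trend or without P3 replicate 1. In all 6 both probe sets had the same sign with all arrays, so the kept probe sets of each of these genes shared a sign. Without P3 replicate 1 this no longer held in Notch2, Notch3 and Jag2. Over the array, all kept probe sets of a gene had 1 sign in 60.6% of 6414 genes. The intervals of the 6 differences were wide. The narrowest, in Notch3, ran from -0.86 to 1.52 on the log2 scale and the widest, in Notch2, from -2.34 to 2.22.

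Probe sets of a gene could differ more on P3 replicate 1 than in their fitted changes. On P3 replicate 1 the log2 signal of Notch1 1418634_at was 1.38 below the mean of the other P3 arrays, and that of Notch1 1418633_at was 0.65 above it. For Notch2, 1451889_at was 2.98 above and 1455556_at was 0.03 above. For Jag1 all 3 probe sets had negative deviations on P3 replicate 1, of -0.39 at 1434070_at, -1.04 at 1421105_at and -2.21 at 1421106_at. For Jag2, 1426431_at had a deviation of -2.16 and 1426430_at of 0.21. For Notch3, 1421964_at was 1.62 above and 1421965_s_at was 0.37 above. The probe sets of Notch1 and of Jag2 thus took opposite signs on P3 replicate 1, where that Gapdh ratio was 82.0. Those of Jag1, Notch2 and Notch3 shared a sign within each gene. The other arrays were not compared in this way. The part of RNA quality in these values was not tested. Without that array the sign of the change turned at Notch2 1451889_at, Notch3 1421964_at and Jag2 1426431_at, none of which was called with or without it, and the number of kept member probe sets called rose from 1 to 2.

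**Figure D4:**
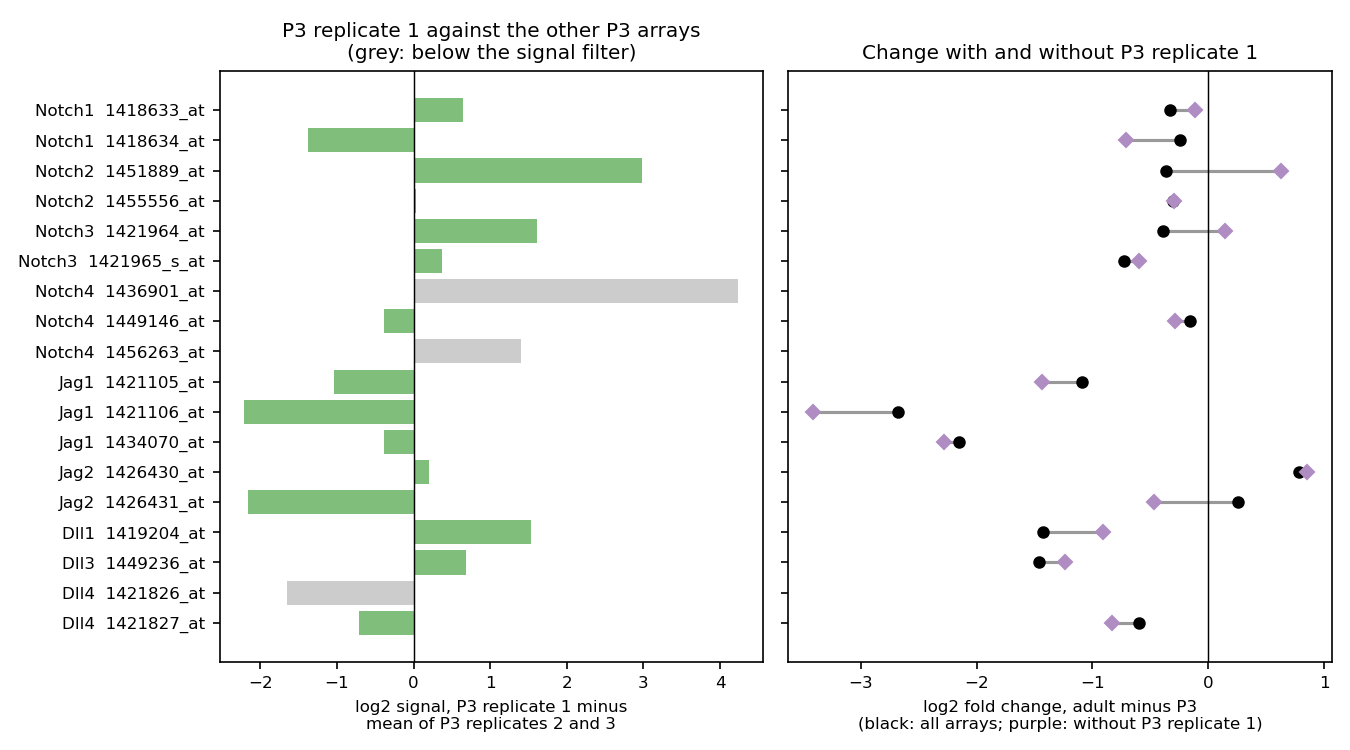
Left, the log2 signal on P3 replicate 1 minus the mean of P3 replicates 2 and 3 at each of the 18 probe sets, with grey bars for the 3 below the signal filter. Right, the log2 fold change (adult minus P3) of the 15 kept probe sets with all arrays (black) and without P3 replicate 1 (purple), which for Jag1 1434070_at is -2.15 and -2.28.

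The rest of the pathway was taken from a list of 54 genes by role, of which 48 were measured. Of these, 3 were called higher at P3 (6.25%) and 1 in the adult (2.08%), beside the 5.49% and 4.53% of all genes given above, and the median log2 fold change was -0.32. The counts were 3 and 1 without P3 replicate 1, 2 and 0 without P3 replicate 2 or P3 replicate 3, 1 and 0 without adult replicate 3, 7 and 2 with array weights, and 5 and 0 by SAM. The stages did not overlap for 15 of the 48 genes with P3 above and for 6 with the adult above, where 20.3% and 15.9% of all genes did so. Among 7 target genes, 2 were called higher at P3, and the median log2 fold change of the 7 was -0.59. Hes1 (-0.46), Hes6 (-0.59), Hey2 (-0.25) and Heyl (0.46, the adult side) were not called. Hey1, a transcriptional repressor turned on by Notch, had signals of 583, 455 and 291 at P3 and of 94.1, 151 and 98.3 in the adult, and its log2 fold change was -1.93 with an SE of 0.32 (limma adjusted p = 0.0103). The call of Hey1 was lost when adult replicate 3 was left out (adjusted p = 0.0608) and without the intensity trend (0.0512). Nrarp, a feedback inhibitor that Notch induces, had signals of 138, 217 and 184 at P3 and of 66.5, 34.2 and 45.8 in the adult, and its log2 fold change was -1.91 with an SE of 0.33 (limma adjusted p = 0.0131). These values are of the brightest of its 2 kept probe sets, of which only 1 was called. The call of Nrarp was lost without P3 replicate 2 (adjusted p = 0.0622), P3 replicate 3 (0.0568) or adult replicate 3 (0.0658). At the brightest probe set of both genes all P3 arrays lay above all adult arrays, as at the brightest of Jag1. Hes5, Lfng and Dner, which were not called, are described because of their known roles and were chosen after their values were seen. Hes5, a Notch target of supporting cells and their precursors, had signals of 24.2, 45.6 and 36.2 at P3 and of 11.4, 2.02 and 9.81 in the adult. Its stages did not overlap, but it was above background on 2 P3 arrays and 1 adult array, and its log2 fold change of -2.49 (SE 0.78) was not called (limma adjusted p = 0.0947). These values are of the brightest of its 2 kept probe sets, and neither was called in the main setting. Hes5 was called higher at P3 when signals were floored at background (adjusted p = 0.0497), when the mean background was added (0.0494), with array weights (0.00269) and by SAM.

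Upstream of the targets the pathway showed few calls. Among 8 genes that cleave the receptor, Psen2, a catalytic subunit of gamma-secretase, was called higher in the adult. Its signals were 176, 106 and 155 at P3 and 257, 331 and 393 in the adult, and the log2 fold change was 1.18 with an SE of 0.28 (limma adjusted p = 0.0386). Psen2 lost its call without P3 replicate 2 (adjusted p = 0.137), P3 replicate 3 (0.0964), adult replicate 2 (0.0869) or adult replicate 3 (0.178), with quantile normalization (0.0505), without the intensity trend (0.108) and by SAM, and was called in 9 of 16 alternatives. None of 5 glycosyltransferases, 4 genes of ligand endocytosis, 6 of the nuclear complex and its corepressors and 10 of receptor turnover was called. Lfng, the fringe enzyme that tunes which ligands a receptor answers to, had a log2 fold change of -1.05 (limma adjusted p = 0.155), with P3 arrays all above adult arrays. Of 8 further proposed ligands, Ccn3, a secreted matricellular protein, was called higher at P3, with signals of 1980, 1730 and 1461 against 188, 129 and 146. Its log2 fold change was -3.49 with an SE of 0.24 (limma adjusted p = 0.000489). Dner, a neuronal membrane protein, had a log2 fold change of 1.29 and was not called (limma adjusted p = 0.123). It was called higher in the adult without adult replicate 2 (adjusted p = 0.0450) and with array weights (0.00244), and was 0.73 without adult replicate 1. Its signals were 352 to 361 at P3 and 1879, 464 and 756 in the adult. Of 10 neuronal genes, 2 were called higher in the adult, beside 4.53% of all genes. The sums of the 10 were 4590 to 5283 at P3 and 21591, 7761 and 11068 on adult replicates 1, 2 and 3. The part of neuronal RNA in the Dner signal was not tested.

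**Figure D5:**
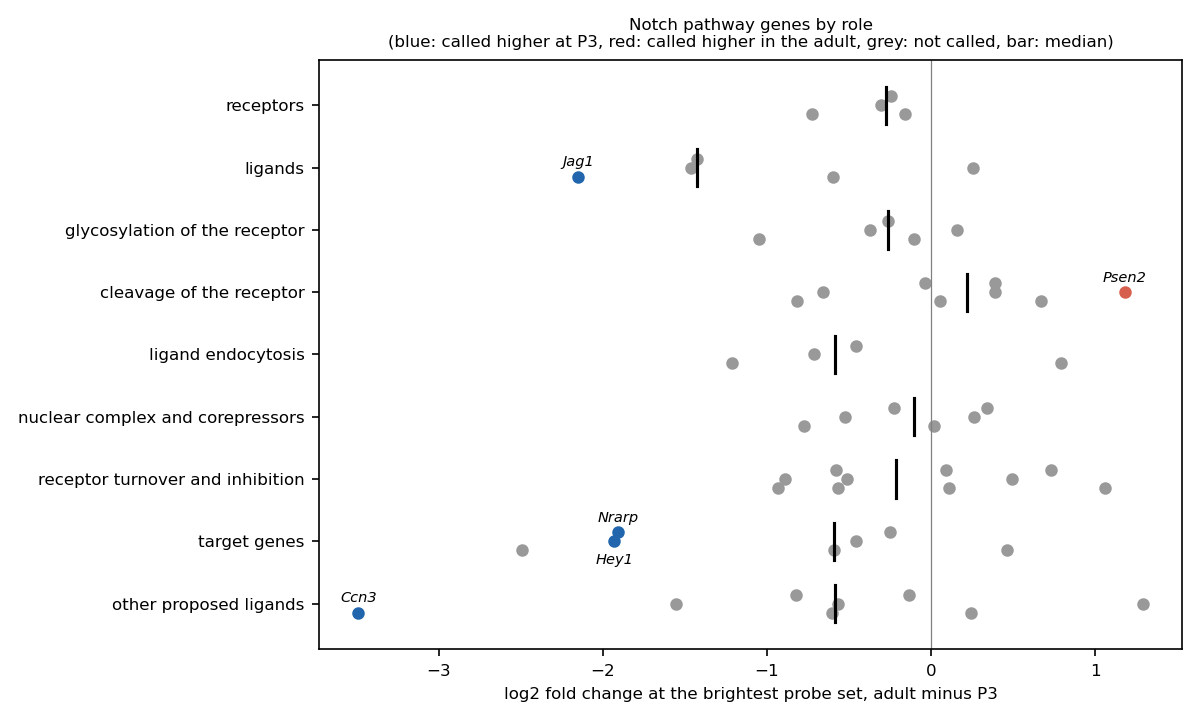
Log2 fold change (adult minus P3) at the brightest kept probe set of each of the 9 receptors and ligands and of 48 other Notch pathway genes, grouped by role, with a black bar at the median of each role. Blue marks a call with P3 higher, red a call with the adult higher, and grey no call. The receptor median is -0.28 and the ligand median -1.43, which is the value of Dll1, a gene that was not called.

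Because Notch activates transcription through Rbpj, the promoters of the members were searched for the core letters that Rbpj binds. The promoters are from RefSeq in build GRCm38.p6 and run from 250 bases before to 50 bases after a start. All 9 members matched, with 10 promoters, since Dll1 has a pair. The motif TGGGAA on either strand was in 0 of these 10 promoters, whereas 25.6% of 32851 promoters of the same length hold it. The longer motif GTGGGAA, which contains the first, was in 6.38% of all promoters. The promoter of the target Hes5 held 2 matches to TGGGAA, both also matches to GTGGGAA. The promoter of the called target Nrarp held 0 matches to either motif. Hey1, the other called target, had no matched promoter and was not searched. The 250 bases before the start are shown for Jag1, the called member (chr2:137116521-137116770, minus strand), and for Hes5, as the example with matches (chr4:154960673-154960922, plus strand), 5′ to 3′ with matches in capitals. The capitals in Hes5 mark TGGGAA or its reverse complement, and the Jag1 stretch has none.
Jag1: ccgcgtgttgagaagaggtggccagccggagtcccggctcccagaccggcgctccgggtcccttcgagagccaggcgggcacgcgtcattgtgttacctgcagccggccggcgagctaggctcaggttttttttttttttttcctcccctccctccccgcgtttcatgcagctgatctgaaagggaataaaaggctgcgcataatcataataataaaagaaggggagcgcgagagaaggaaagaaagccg
Hes5: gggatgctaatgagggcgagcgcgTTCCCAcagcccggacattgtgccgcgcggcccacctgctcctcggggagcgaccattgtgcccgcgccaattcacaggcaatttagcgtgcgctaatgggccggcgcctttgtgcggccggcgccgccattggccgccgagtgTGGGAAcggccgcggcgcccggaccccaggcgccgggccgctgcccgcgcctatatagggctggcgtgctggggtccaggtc
These windows are short, and a missing match says only that the letters are not in them.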

How the data were processed

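RNA from 3 P3 and 3 adult pools of CSE, each from a separate dissection of 20 mice, was hybridized to 1 Affymetrix Mouse Genome array per pool. The authors deposited linear signal intensities computed by MAS5.0, with a trimmed mean (2% off each end) of 100 on every array. The submitters' processing notes name GCOS 1.2. All columns were matched to a sample by its identifier, with 0 unmatched columns, and stage and replicate were read from the sample titles. Detection calls by the authors did not enter any step.

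Of 45101 probe sets, 64 were controls. The array annotation gave 34945 a single gene, 932 several and 9160 none. Intensities were taken as deposited, kept above background on at least 3 of 6 arrays, and fitted as log2 values with limma 3.58.1 in R 4.3.3 (lmFit, eBayes with its trend option, a single term for stage, Benjamini-Hochberg adjustment over all 29036 probe sets). Genes were counted by the kept probe set of highest mean signal. Probe sets of a gene were compared by limma on their within-array log2 differences. The scripts were tested on simulated data. All 9 members were named with all probe sets, with called genes of the pathway list, the 3 probe sets most like Jag1 and defining cell type markers. The members and lists were chosen with earlier results of these data known. Alternatives were other normalizations, filters, floors and variance settings, array weights, a replicate block, SAM computed from its published statistic, and leaving out each array. The number of arrays limits the precision.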

Additional observations from a re-analysis of the deposited data

How the results depend on the processing

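Jag1 1434070_at was called higher at P3 in all 16 alternatives. Over the 15 kept probe sets, 238 alternative values were computed, of which 217 kept direction and side of the threshold, 7 became calls and 14 turned sign, none of the latter called. The total called, 2109, was 899 without the intensity trend, 7593 with array weights (3182 higher at P3 and 4411 in the adult) and 576 to 2839 with an array left out. Member probe sets called, 1, were 2 with signals floored at background, 4 with array weights, 2 with the replicate block, 2 by SAM and 1 to 2 with an array left out, and member genes called were 2 with array weights (Jag1 and Dll3). Signs turned for Jag2 1426431_at (-0.49 floored, -0.26 with array weights, -0.47 to 0.67 with an array left out), Notch1 1418633_at (0.21 with array weights), Notch3 1421964_at (0.16 with array weights, -0.77 to 0.15 with an array left out), Notch4 1449146_at (0.074 with array weights, -0.35 to 0.16 with an array left out), Notch2 1451889_at (0.36 with array weights, -1.13 to 0.63 with an array left out) and Notch1 1418634_at (-0.71 to 0.044 with an array left out). The cause was not tested. No pair of member probe sets differed at an adjusted p under 0.05 in the alternatives run, and 1 did at an unadjusted p under 0.05 in 4 of them. Deviations of arrays sharing a replicate number correlated at 0.18, 0.21 and 0.08, and all 6 arrays correlated best with their own number. The titles give only the number, so the main fit held stage alone. Whether arrays of the same number share more than that was not tested. With the replicate block 2649 probe sets were called in all, and Jag1 1421106_at was the added member (adjusted p = 0.0102). Dll3 1449236_at and Dll4 1421827_at had no value when 4 arrays had to exceed background. Signals near background limit Jag2, Dll1, Dll3 and Dll4.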
